A study of Mus musculus with 8 samples.

Results

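The 10 genes described here encode proteins that the gut lining or its immune cells release against microbes: the C-type lectins Reg3a, Reg3b, Reg3g and Reg4, the lysozyme Lyz1, the serum amyloid A proteins Saa1 and Saa3, and Lcn2, Slpi and Dmbt1. Each was found by its symbol in the mouse annotation GENCODE M21 (build mm10), and all 10 had a row among the 52636 Ensembl gene identifiers of the deposited count table. RNA was sequenced from colon of wild-type C57BL/6 females raised germ-free, 6 weeks old and kept in gnotobiotic isolators, so no animal carried bacteria by design. The 3 groups were: mice given C. tropicalis MYA-3404 by gavage (2 libraries), mice given C. albicans SC5314 by gavage (3 libraries), and control mice (3 libraries). Both yeasts had colonized for 30 days when the colon was taken. What the control mice received, the stretch of colon sampled, and whether each library is a separate mouse are not stated in the labels, so the p-values rest on the variation among 8 libraries, part of which may be technical.

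As background, Reg3 lectins are secreted by intestinal epithelial cells and can kill bacteria at the surface of the gut. In mice, their transcription is low without microbes and climbs after bacterial colonization, through MyD88 in epithelial cells and through interleukin-22 and STAT3. Lipocalin-2 and serum amyloid A belong to the acute-phase response and are used as readouts of gut inflammation, while lysozyme in the mouse gut comes mainly from Paneth cells of the small intestine (Lyz1) and from macrophages (Lyz2).

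Saa1 and Dmbt1 were among the most abundant transcripts of these germ-free colons, whereas the Reg3 lectins were at or close to the detection limit, and no gene of the group that could be tested passed the test in any comparison. A gene was called below detection in a library at 3 counts or fewer, equal to between 0.157 and 0.183 CPM (counts-per-million) in these libraries, which covers counting error only. By that rule Reg3a was below detection in all 8 libraries, Reg3b in 7, Saa3 in 4 and Reg3g in 1; the other 6 genes were above it everywhere. Reg3a and Reg3b had too few counts to be tested, which left 8 genes in a table of 16107 genes tested. None of the 8 passed an adjusted p of 0.05 (edgeR quasi-likelihood F-test, Benjamini-Hochberg over all genes) for C. albicans against control, where 0.0435% of all genes passed, for C. tropicalis against control, where 0.031% passed, or between C. tropicalis and C. albicans, where 0% passed. At an unadjusted p under 0.05, the first 2 comparisons held 0 of the 8 (15.4% of all genes in each), and the comparison between the yeasts held 2, Reg3g and Reg4 (23.2% of all genes). DESeq2 and limma-voom also called 0 of the 8 in each comparison.

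To compare genes with each other, CPM was divided by exon length in kilobases, taken as the merged exons of all annotated transcripts of a gene. For Saa1 this length, 2478 bases, is nearly the whole gene span, introns included. For Lcn2 (2623 bases), Saa3 (2606) and Reg3g (2114) it is most of the span. The levels per kilobase, ranks and order of these genes depend on that choice. On that scale Saa1 averaged 1196 over the 8 libraries, rank 23 of all genes, and Dmbt1 averaged 406. Reg4 averaged 164 with a range of 12.3 to 329. Lyz1 (9.78), Slpi (2.09), Lcn2 (0.714), Saa3 (0.326), Reg3g (0.266), Reg3b (0.113) and Reg3a (0.00795) followed in that order. Neighbours in this order had separate ranges over the libraries for Saa1 and Dmbt1, for Dmbt1 and Reg4, and for Slpi and Lcn2. The ranges of all other neighbours overlapped on this scale. In CPM, Saa1 (2249 to 4074) also overlapped Dmbt1 (2548 to 3361), and Slpi (1.60 to 2.94) overlapped Lcn2 (1.01 to 2.53). Their separation thus rests on the lengths used. Compared within each library, Reg4 was above Lyz1 and Reg3g above Reg3b in 8 of 8, Lyz1 above Slpi in 7, Lcn2 above Saa3 in 6, Saa3 above Reg3g in 3, and Reg3b above Reg3a in 3.

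**Figure D1:**
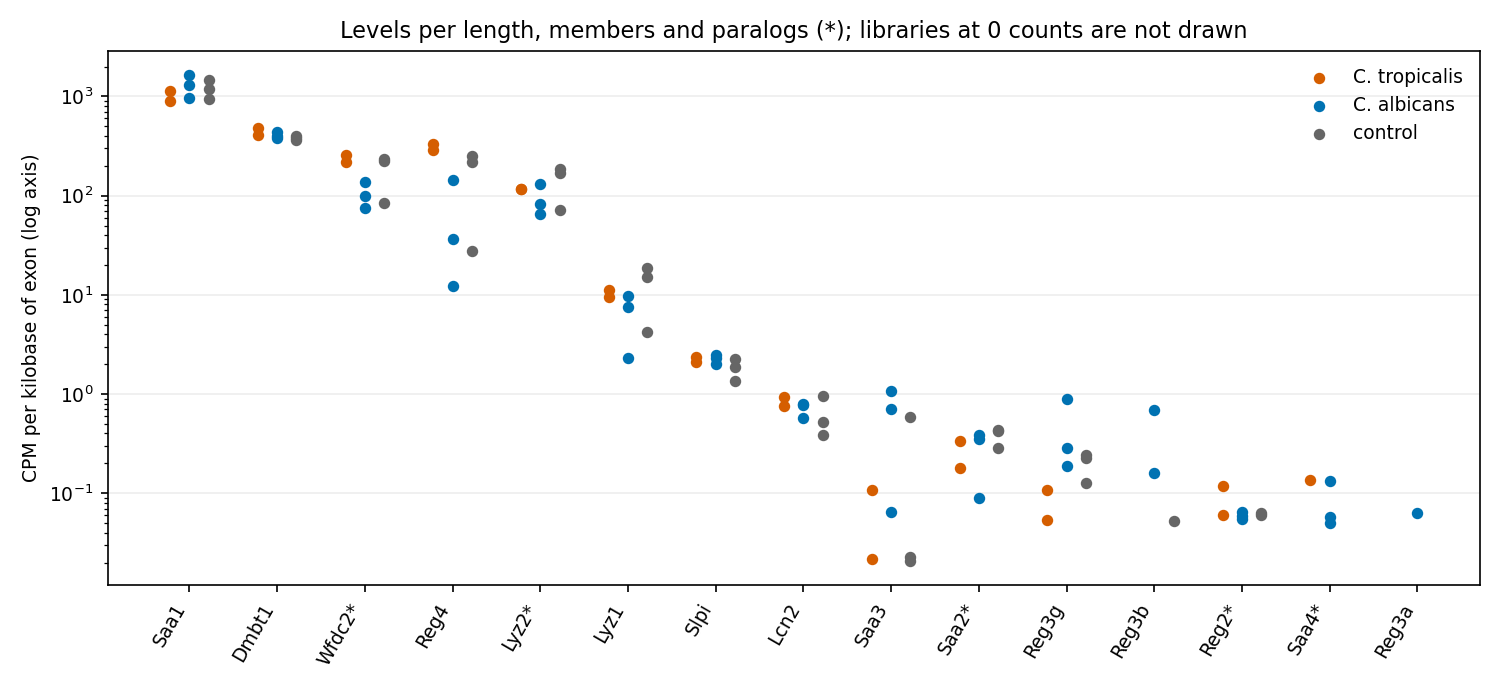
Level of each gene and its paralogs (asterisks) as CPM per kilobase of exon on a log axis. Each point is 1 library, coloured by group; libraries at 0 counts are not drawn. Saa1 and Dmbt1 lie at the top with little spread, Reg4 spreads from 12.3 to 329, and the Reg3 genes lie at the bottom.

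Reg3a, a further lectin of the family, had 1 count in all, in C. albicans 2. Reg3b, a lectin best known in mice for defence against Gram-negative bacteria, had 0 and 0 counts with C. tropicalis, 0, 15 and 3 with C. albicans, and 0, 1 and 0 in control colon. Its signal thus came from C. albicans 2, at 0.787 CPM with an exact Poisson 95% interval of 0.441 to 1.30, which covers counting error only. No fold change is given for Reg3b, since every other library was at or under 3 counts.

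Reg3g, a lectin that binds peptidoglycan of Gram-positive bacteria, had 0.114 and 0.227 CPM with C. tropicalis, 0.393, 1.89 and 0.610 CPM with C. albicans, and 0.514, 0.477 and 0.269 CPM in control colon. Behind these levels stood 2 and 4 counts with C. tropicalis, 7, 36 and 10 with C. albicans, and 9, 8 and 5 in control colon. C. albicans 2 was the highest library, as for Reg3b, and the C. tropicalis libraries were below all others. The nearest control library, control 3, had 5 counts against 4 in C. tropicalis 2. Their exact Poisson 95% intervals, 0.087 to 0.628 CPM and 0.062 to 0.580 CPM, overlap. The log2 difference between C. tropicalis and C. albicans was -2.46 ± 0.83 (SE; 95% interval -4.33 to -0.60), with an unadjusted p of 0.0153 and an adjusted p of 0.123 in edgeR. Against control, the log2 difference was -1.26 ± 0.87 with C. tropicalis (adjusted p = 0.497) and 1.20 ± 0.63 with C. albicans (adjusted p = 0.378). Without C. albicans 2, or without C. albicans 3, Reg3g itself had too few counts to be tested.

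Reg3b and Reg3g are neighbours on chromosome 6 (Reg3b at 78370657 to 78373466 on the plus strand, Reg3g at 78466269 to 78468872 on the minus strand, mm10), with Reg3a, Reg3d, Reg2 and Reg1 between them. The 250 bases before their RefSeq start sites (GRCm38.p6, 5′ to 3′) are shown because both genes had their highest count in the same library and their promoters hold different motifs. Capitals mark the only match in each window to 1 of 2 motifs searched on both strands, TTCNNNGAA (STAT) in Reg3b and the NF-kappa-B motif in Reg3g, which do not overlap.
Reg3b, chr6:78370635-78370884, plus strand: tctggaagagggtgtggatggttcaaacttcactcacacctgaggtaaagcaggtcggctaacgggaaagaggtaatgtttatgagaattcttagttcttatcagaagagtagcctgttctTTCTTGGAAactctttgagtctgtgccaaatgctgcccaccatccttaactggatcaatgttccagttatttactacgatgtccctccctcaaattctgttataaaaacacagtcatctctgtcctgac
Reg3g, chr6:78468875-78469124, minus strand: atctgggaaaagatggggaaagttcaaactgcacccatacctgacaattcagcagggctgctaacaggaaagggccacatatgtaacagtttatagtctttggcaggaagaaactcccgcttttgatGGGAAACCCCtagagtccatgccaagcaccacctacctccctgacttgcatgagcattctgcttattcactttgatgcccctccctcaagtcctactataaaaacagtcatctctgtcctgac
The STAT match begins 129 bases before the Reg3b start and the NF-kappa-B match 123 bases before the Reg3g start. For Reg3b the RefSeq start lies downstream of the GENCODE start. Most of its window, with the STAT match, therefore falls inside the gene span given above. Of 32841 RefSeq promoter windows of the same length, 7.02% hold the first motif and 3.90% the second. Neither motif was found in the windows of Reg3a, Reg4, Lcn2, Saa1, Saa3, Slpi or Lyz1, which says only that these letters are not there. The windows of Lcn2 and Slpi lie wholly inside the GENCODE gene span, and that of Saa3 in small part. No RefSeq window was matched to Dmbt1. The Reg3b and Reg3g windows were identical at 68.9% of aligned positions. The paralogs Reg1 and Reg3d had 0 counts in all libraries and Reg2 had 8 in all, at most 2 in a library.

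Reg4, a lectin made in the mouse colon by deep crypt secretory and enteroendocrine cells, was the most variable of the abundant genes. It had 297 and 335 CPM with C. tropicalis, 147, 12.6 and 37.7 CPM with C. albicans, and 28.0, 222.6 and 257 CPM in control colon. Both C. tropicalis libraries were above all others, and the C. albicans libraries overlapped the controls, of which control 1 was low. The highest library stood 26.6-fold above the lowest. Within groups, the highest exceeded the lowest 1.13-fold with C. tropicalis, 11.7-fold with C. albicans and 9.19-fold in controls. Between C. tropicalis and C. albicans the log2 difference was 2.26 ± 0.98 (95% interval 0.05 to 4.48), with an unadjusted p of 0.0459 and an adjusted p of 0.206 in edgeR. Leaving out C. albicans 1 took it to 3.62 with an adjusted p of 0.0499, the only setting of any tried that called a gene of the group; over the other alternatives the adjusted p reached up to 0.843. Against control the log2 difference was 0.90 ± 0.97 with C. tropicalis (adjusted p = 0.672) and -1.36 ± 0.90 with C. albicans (adjusted p = 0.469, edgeR). Single libraries moved both: it was 0.40 with C. tropicalis without control 1 and, with C. albicans, -2.71 without C. albicans 1 and -0.87 without C. albicans 2.

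Lyz1, a lysozyme that cleaves bacterial peptidoglycan, had 12.0 and 14.1 CPM with C. tropicalis, 12.4, 2.89 and 9.57 CPM with C. albicans, and 5.31, 19.3 and 23.3 CPM in control colon. The 3 groups overlapped, and the lowest values were those of C. albicans 2 and control 1, as for Reg4. Its log2 difference was -0.30 ± 0.64 for C. tropicalis against control (adjusted p = 0.848), -0.95 ± 0.58 for C. albicans against control (adjusted p = 0.436) and 0.66 ± 0.64 for C. tropicalis against C. albicans (adjusted p = 0.586, edgeR). Its paralog Lyz2, the lysozyme of macrophages, was the more abundant one in all 8 libraries, at 12.0 times the mean level of Lyz1 per kilobase. Lyz2 had 154 and 152 CPM with C. tropicalis, 172, 86.6 and 109 CPM with C. albicans, and 93.96, 225 and 247 CPM in control colon. Of the 50-base stretches of the Lyz1 transcripts, 16.1% also occur in Lyz2, so part of the reads could have been assigned to either gene, and how the authors treated such reads is not given in the sources used here.

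**Figure D2:**
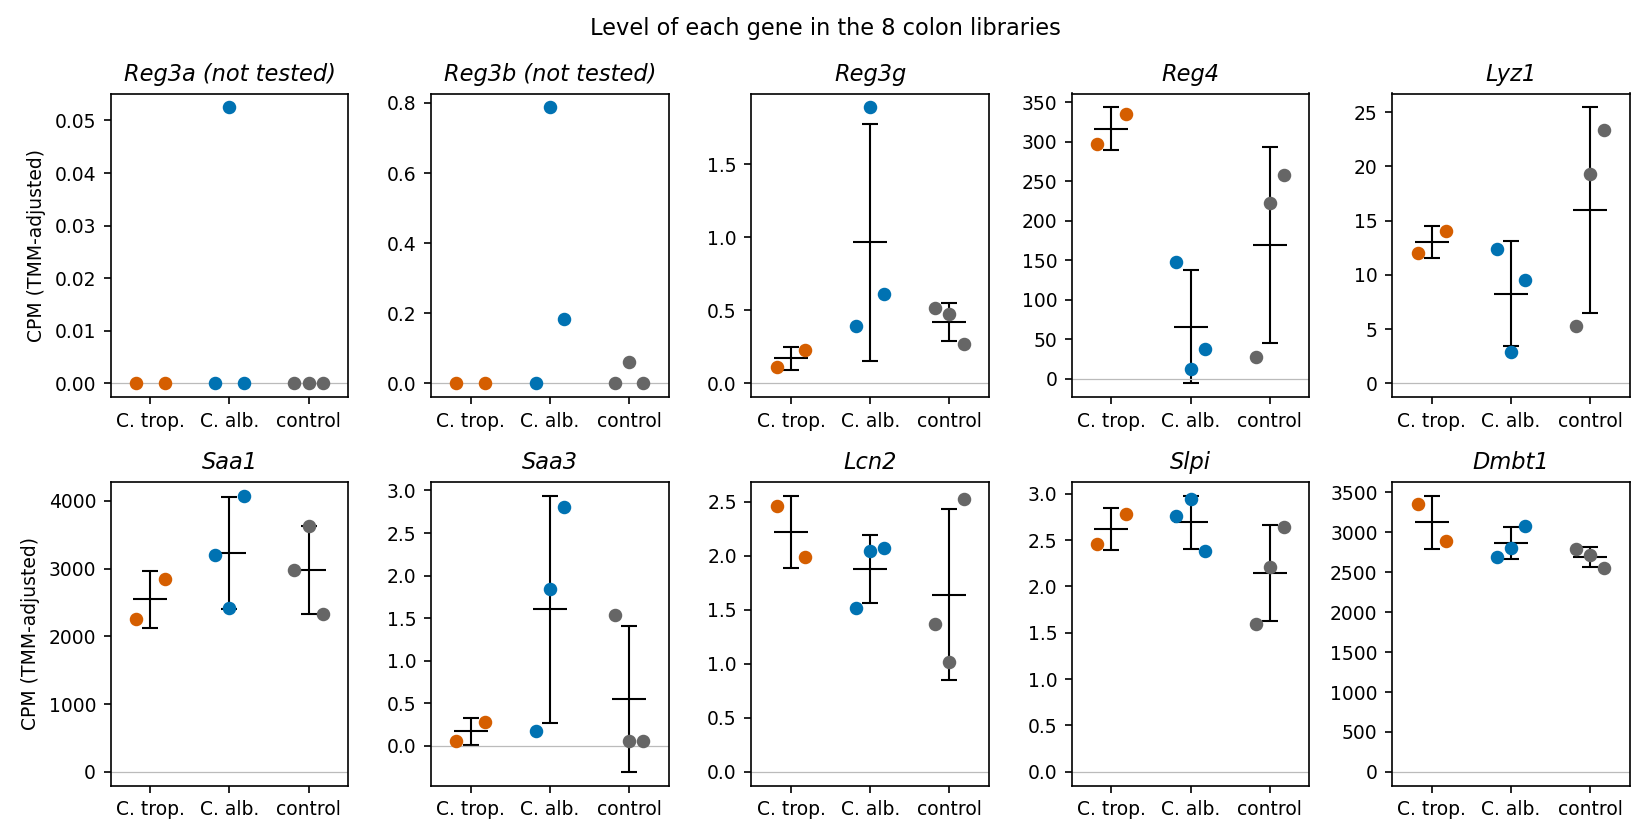
CPM of each gene (linear axes) with C. tropicalis, C. albicans and in control colon, 1 point per library. For the 8 genes tested, the bar is the mean and the whiskers are ± 1 SD (n = 2, 3 and 3); Reg3a and Reg3b were not tested. Saa1, Dmbt1, Slpi and Lcn2 overlap or nearly overlap in all groups, while Reg4, Lyz1 and Saa3 spread widely within the C. albicans and control groups.

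Saa1, an apolipoprotein of the acute-phase response that is also made by gut epithelium, had 2249 and 2845 CPM with C. tropicalis, 3197, 2418 and 4074 CPM with C. albicans, and 2973, 3627 and 2336 CPM in control colon. All 3 groups overlapped, and the highest library was 1.81-fold above the lowest. The group means were 2547 ± 421 CPM with C. tropicalis (SD, n = 2), 3230 ± 829 with C. albicans and 2979 ± 645 in controls (SD, n = 3 each). The 95% interval of the log2 difference from control was -0.82 to 0.37 with C. tropicalis and -0.42 to 0.65 with C. albicans. These intervals rest on few libraries per group and do not exclude larger differences.

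Saa2, the neighbour of Saa1 on chromosome 7, carries nearly the same promoter yet had only 8 and 15 counts with C. tropicalis, 4, 17 and 16 with C. albicans, and 19, 12 and 20 in control colon. Saa1 counts exceeded those of Saa2 in every library, by 2172 to 14220.5 times. The 2 promoter windows (250 bases before the RefSeq start sites, GRCm38.p6, 5′ to 3′) are printed because they show how little separates the genes there; capitals mark bases that differ from, or have no partner in, the other gene.
Saa1, chr7:46742981-46743230, minus strand: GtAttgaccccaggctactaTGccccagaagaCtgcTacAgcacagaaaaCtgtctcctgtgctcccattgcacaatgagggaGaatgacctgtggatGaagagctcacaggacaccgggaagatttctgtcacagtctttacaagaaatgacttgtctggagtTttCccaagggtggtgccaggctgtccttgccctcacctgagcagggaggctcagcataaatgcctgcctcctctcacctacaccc
Saa2, chr7:46751583-46751832, plus strand: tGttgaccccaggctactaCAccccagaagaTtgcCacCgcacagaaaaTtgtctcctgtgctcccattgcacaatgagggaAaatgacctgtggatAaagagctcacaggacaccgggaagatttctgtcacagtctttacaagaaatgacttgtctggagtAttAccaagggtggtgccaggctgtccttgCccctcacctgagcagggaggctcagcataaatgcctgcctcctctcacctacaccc
The windows were identical at 238 of 251 aligned positions (94.8%), with 11 mismatches and 2 gaps. The transcripts are also alike: 31.1% of the 50-base stretches of Saa1 occur in Saa2, and 30.0% of those of Saa2 occur in Saa1. These stretches come from all annotated transcripts, whose merged exons (2478 bases for Saa1, 2518 for Saa2) cover nearly the whole gene span, introns included. The share within the spliced transcripts alone was not computed. The counts of Saa2 and the ratio of both genes are therefore uncertain, because reads that fit both genes may have been dropped or assigned to 1 of them. Saa4 had 14 counts in all.

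Saa3, the serum amyloid A of macrophages and fat cells in mice, had 0.0571 and 0.283 CPM with C. tropicalis, 0.169, 1.84 and 2.80 CPM with C. albicans, and 1.54, 0.0596 and 0.0538 CPM in control colon. It rested on 1 and 5 counts with C. tropicalis, 3, 35 and 46 with C. albicans, and 27, 1 and 1 in control colon. The 3 libraries C. albicans 2, C. albicans 3 and control 1, thus held nearly all of its counts, and the groups overlapped. The log2 difference was -1.65 ± 1.63 for C. tropicalis against control (adjusted p = 0.640), 1.53 ± 1.15 for C. albicans against control (adjusted p = 0.525) and -3.18 ± 1.56 for C. tropicalis against C. albicans (adjusted p = 0.261, edgeR). Control 1 decided the comparisons with control: without it the log2 difference was 1.48 with C. tropicalis (adjusted p = 0.746) and 4.66 with C. albicans (adjusted p = 0.137, edgeR).

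Lcn2, which encodes lipocalin-2, a protein that withholds iron from bacteria by binding siderophores, stayed near the low end of detection. It had 2.46 and 1.98 CPM with C. tropicalis, 1.52, 2.05 and 2.07 CPM with C. albicans, and 1.37, 1.01 and 2.53 CPM in control colon. These were 17 to 47 counts per library, and control 2 and control 3 were the lowest and the highest of all. The log2 difference was 0.43 ± 0.42 for C. tropicalis against control (adjusted p = 0.635), 0.19 ± 0.38 for C. albicans against control (adjusted p = 0.818) and 0.24 ± 0.42 for C. tropicalis against C. albicans (adjusted p = 0.779, edgeR).

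Slpi, an inhibitor of neutrophil proteases with antimicrobial activity, had 2.46 and 2.78 CPM with C. tropicalis, 2.75, 2.94 and 2.38 CPM with C. albicans, and 1.60, 2.20 and 2.64 CPM in control colon. The groups overlapped, and control 1 was the lowest. Its log2 difference from control was 0.28 ± 0.31 with C. tropicalis (adjusted p = 0.680) and 0.33 ± 0.28 with C. albicans (adjusted p = 0.579, edgeR). Wfdc2, a related gene with the same type of protease inhibitor domain, was far more abundant, at 79.4 times the mean level of Slpi per kilobase. It had 248 and 293 CPM with C. tropicalis, 158, 86.4 and 112 CPM with C. albicans, and 95.2, 266 and 255 CPM in control colon. For Wfdc2 the C. tropicalis libraries were above all C. albicans libraries, with a log2 difference of 1.18 ± 0.40 that did not pass adjustment (adjusted p = 0.125, edgeR).

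Dmbt1, a large scavenger receptor glycoprotein of gut mucus that binds bacteria, was the steadiest of the 10 genes. It had 3361 and 2894 CPM with C. tropicalis, 2696, 2810 and 3085 CPM with C. albicans, and 2798, 2716 and 2548 CPM in control colon. Its highest library was 1.32-fold above its lowest. Both C. tropicalis libraries lay above the 3 controls, with means of 3128 ± 330 CPM (SD, n = 2) and 2687 ± 127 CPM (SD, n = 3). The log2 difference from control was 0.22 ± 0.16 with C. tropicalis (95% interval -0.13 to 0.57, adjusted p = 0.512) and 0.09 ± 0.14 with C. albicans (95% interval -0.23 to 0.41, adjusted p = 0.763, edgeR). The gene lies within the span that the annotation gives to Fgfr2 on the other strand, but no exons overlap.

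Of the 8 genes tested, 3 did not overlap between C. tropicalis and control, against 32.5% of all genes tested. Reg4 and Dmbt1 were above and Reg3g below, for Reg3g with 4 counts in C. tropicalis 2 against 5 in control 3. Between C. albicans and control, 0 of the 8 were without overlap, against 19.4% of all genes. Between C. tropicalis and C. albicans it was so for 2, with Reg4 above and Reg3g below, against 45.9% of all genes. With C. albicans against control, 6 genes had a higher estimate and 2 a lower one, with a median log2 difference of 0.16 beside -0.02 over all genes. The estimates split 4 to 4 with C. tropicalis against control (median -0.0035 beside -0.02) and with C. tropicalis against C. albicans (0.04 beside 0.04). Both comparisons with control share the 3 control libraries. Between the yeasts the remaining 6 genes had log2 differences from -3.18 (Saa3) to 0.66 (Lyz1), with adjusted p-values from 0.261 to 0.954 in edgeR.

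**Figure D3:**
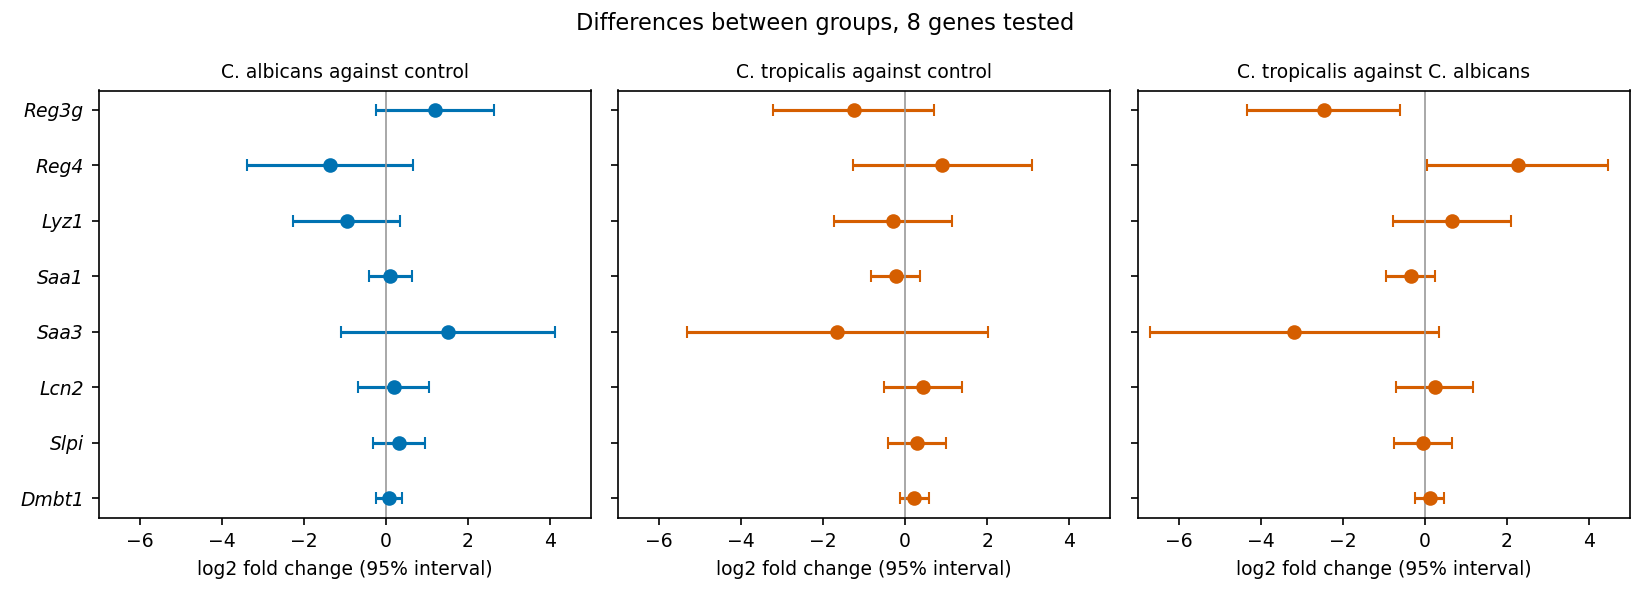
Log2 fold change with its 95% interval for the 8 genes tested (edgeR, 1 fit of 8 libraries) in the 3 comparisons, positive where the group named first was higher. The intervals cross 0 in both comparisons with control. Between the yeasts those of Reg3g and Reg4 do not, and their adjusted p-values were 0.123 and 0.206.

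Several genes were high or low in the same libraries, across groups. Control 1, C. albicans 2 and C. albicans 3 had the 3 lowest levels of Reg4 and the 3 highest of Saa3, and they also held the 3 lowest levels of Lyz1. The same 3 libraries had the highest summed level of 12 smooth muscle genes, at 4187 and 5455 CPM with C. tropicalis, 10507, 30218 and 16999 CPM with C. albicans, and 14306, 11781 and 7376 CPM in control colon. They also had the lowest sum of 10 B cell and follicle genes, at 84.7 and 125 CPM with C. tropicalis, 82.9, 16.5 and 68.5 CPM with C. albicans, and 24.3, 262 and 331 CPM in control colon. All 12 and all 10 of these markers were detected. When the smooth muscle score entered the fit, the log2 difference of Reg4 between C. tropicalis and C. albicans was -0.95 (adjusted p = 0.843) and that of Reg3g was 0.32 (adjusted p = 0.953, edgeR). Both C. tropicalis libraries had lower scores (-1.23 and -0.86) than every other library (-0.51 to 1.44). The score and this group therefore cannot be told apart, and the values fitted with the score extend beyond the libraries compared. The part of the tissue layers in these levels was not tested further. In bulk tissue, fewer cells of a type and less RNA per cell cannot be told apart.

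**Figure D4:**
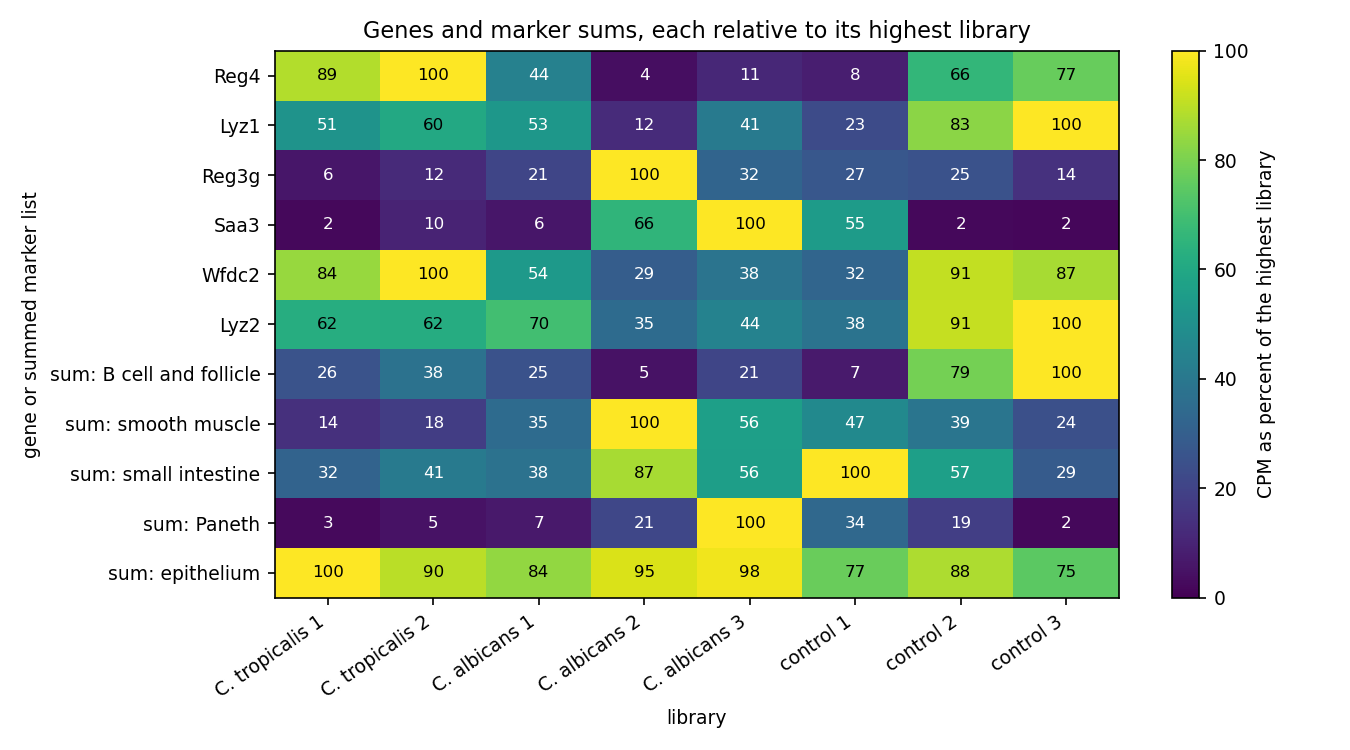
CPM of 4 of the genes, of the paralogs Wfdc2 and Lyz2, and of summed marker lists in each library, as a percentage of the highest library in that row. Reg4, Lyz1 and the B cell sum are low and Saa3 is high in C. albicans 2, C. albicans 3 and control 1; the epithelial sum stays at 74.6% or more everywhere.

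Epithelial markers were high in every library: 12 of 12 were detected, with a summed level of 23863 to 26651 CPM with C. tropicalis, 22323 to 26104 CPM with C. albicans and 19887 to 23419 CPM in controls. Of 12 genes typical of small intestine, 3 (Sis, Apoa4 and Cyp3a11) were at 3 counts or fewer in every library, while Fabp2, an intestinal fatty acid binding protein, reached 215 CPM in C. albicans 2. The list summed to 141 and 180 CPM with C. tropicalis, 168, 384 and 248 CPM with C. albicans, and 442, 250.3 and 128 CPM in control colon, highest in control 1 and C. albicans 2, the libraries lowest for Reg4 and Lyz1. Of 8 Paneth cell markers, the defensins Defa17, Defa24 and Defa30 had 0 counts everywhere, and the sum of the list was 4.80 and 8.56 CPM with C. tropicalis, 12.3, 38.4 and 181 CPM with C. albicans, and 61.3, 33.8 and 4.09 CPM in control colon. Ang4 carried most of it where the sum was high, at 175.5 of the 181 CPM in C. albicans 3, but 0.753 of the 4.09 CPM in control 3. Lyz1 was highest in control 3, where this sum was lowest. The detected markers of the list were not all highest in the same library, and the cell source of Lyz1 was not tested. Of 12 neutrophil markers, 8 were at 3 counts or fewer in every library. Apart from Ly6g, the list summed to between 0.577 and 2.75 CPM; Ly6g was set aside after its values were seen, because it alone reached up to 234 CPM. Summed macrophage markers, among which Lyz2 is listed, ran from 215 to 481 CPM. The 10 goblet and deep crypt secretory markers summed to 14681 to 17070 CPM with C. tropicalis, 17035 to 22459 with C. albicans and 12716 to 20432 in controls. The 8 enteroendocrine markers summed to 343 to 357, 410 to 487 and 376 to 499 CPM in that order. Neither sum was highest with C. tropicalis, where Reg4 was highest. Fcgbp, Clca1, Muc2 and Zg16 made up most of the first sum, at mean levels of 5702, 3768, 3714 and 2651 CPM. Kit, of the same list, averaged 60.2 CPM, so the sum does not show the level of deep crypt secretory cells alone. Its 10 markers split 6 higher and 4 lower with C. tropicalis against control, and 2 and 8 against C. albicans. The cell source of Reg4 was not tested.

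Signals known to switch on these genes were mostly scarce. Of 28 upstream cytokines, receptors and transcription factors, 23 were tested. Il22, the inducer of Reg3 genes, had 0 counts in all libraries, and Il17a and Il6 had 3 or fewer in each. With C. albicans against control, 13 of the 23 had higher and 10 lower estimates (median log2 difference 0.07), with C. tropicalis against control also 13 and 10 (0.07), and with C. tropicalis against C. albicans 12 and 11 (0.04). None passed the adjusted threshold, while 7, 7 and 6 of the 23 had an unadjusted p under 0.05, beside 15.4%, 15.4% and 23.2% of all genes. Those with the smallest p were as follows.

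With C. albicans they were Il17rc, a chain of the receptor for interleukin-17, and Cebpb, a transcription factor of acute-phase genes. Il17rc averaged 469 ± 54.1 CPM with C. albicans and 265 ± 36.8 CPM in controls (SD, n = 3 each), a log2 difference of 0.82 ± 0.18 (adjusted p = 0.151, edgeR). Cebpb averaged 41.7 ± 10.3 CPM with C. albicans and 12.9 ± 7.79 CPM in controls, a log2 difference of 1.69 ± 0.42 (adjusted p = 0.185, edgeR). Neither group pair overlapped.

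With C. tropicalis, Tlr2, a receptor for bacterial and fungal wall components, was among them. Tlr2 had 5.42 and 6.69 CPM with C. tropicalis, 15.2, 17.1 and 13.8 CPM with C. albicans, and 21.5, 15.8 and 10.9 CPM in control colon. The C. tropicalis libraries were below all others. The log2 difference was -1.41 ± 0.29 for C. tropicalis against control (adjusted p = 0.144) and -1.34 ± 0.29 for C. tropicalis against C. albicans (adjusted p = 0.0658, edgeR).

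Of 24 other antimicrobial and barrier effectors, 19 were tested and 0 passed the adjusted threshold in any comparison, with 5 at an unadjusted p under 0.05 for C. albicans against control, 1 for C. tropicalis against control and 7 between the yeasts, beside 15.4%, 15.4% and 23.2% of all genes. Higher and lower estimates numbered 9 and 10 with C. albicans against control (median log2 difference -0.11), 13 and 6 with C. tropicalis against control (0.20), and 9 and 10 with C. tropicalis against C. albicans (-0.01). Camp, Bpi and S100a9, which are products of neutrophils and other phagocytes, were at 3 counts or fewer in every library.

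The effectors with the smallest p included both parts of the epithelial hydrogen peroxide system. Duox2, the oxidase, had 85.2 and 74.9 CPM with C. tropicalis, 107, 149.9 and 237 CPM with C. albicans, and 65.6, 47.2 and 48.8 CPM in control colon, without overlap between any of the groups. Its log2 difference was 1.61 ± 0.27 for C. albicans against control (adjusted p = 0.0929) and -1.04 ± 0.31 for C. tropicalis against C. albicans (adjusted p = 0.0960, edgeR). Duoxa2, its maturation factor, had a log2 difference of 1.12 ± 0.32 with C. tropicalis (adjusted p = 0.219) and 1.17 ± 0.29 with C. albicans (adjusted p = 0.190, edgeR), both against control.

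Ang4, an antimicrobial ribonuclease of Paneth and goblet cells, was scattered like Saa3. It had 1.26 and 4.19 CPM with C. tropicalis, 9.56, 35.2 and 175.5 CPM with C. albicans, and 57.4, 29.4 and 0.753 CPM in control colon. C. albicans 3 was the highest library and control 3 the lowest, and the log2 difference of -3.42 ± 1.64 for C. tropicalis against control was within the spread (adjusted p = 0.352, edgeR). Cxcl5, a chemokine that attracts neutrophils, had 32 and 30 counts with C. tropicalis, 2, 0 and 0 with C. albicans, and 0, 3 and 20 in control colon. The C. tropicalis libraries were above all others for Cxcl5, and the difference from C. albicans had an adjusted p of 0.0740 in edgeR; no fold is given for it, since the C. albicans libraries were all under the detection limit.

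**Figure D5:**
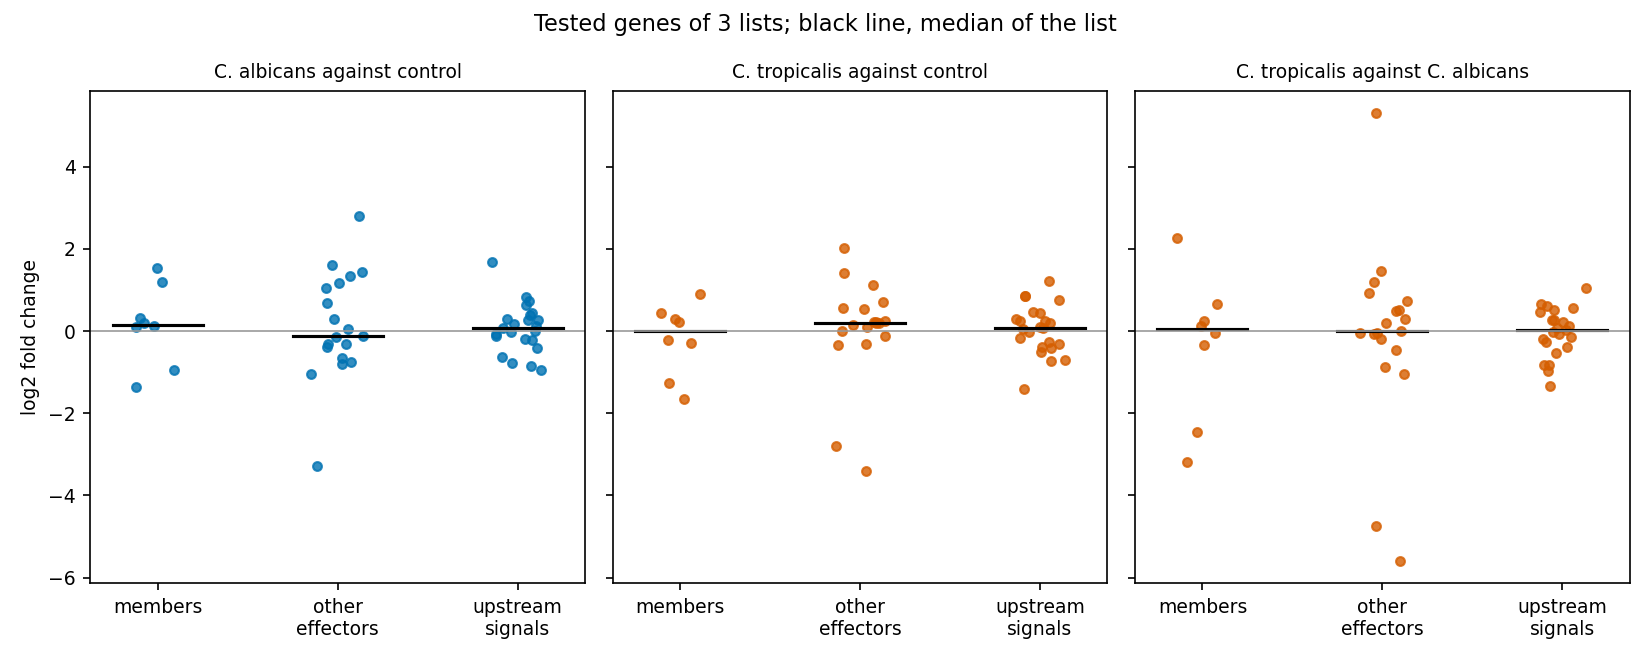
Log2 fold change of each tested gene of 3 lists in the 3 comparisons (members are the 8 genes tested of the 10; other effectors, 19 genes; upstream signals, 23 genes), 1 point per gene, with the list's median as a black line. The medians lie between -0.11 and 0.20, and the widest scatter is among the other effectors between the yeasts.

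Genes whose level over the 8 libraries was most like that of each gene were found by Pearson r of log2 CPM among up to 10849 other genes of mean CPM of at least 5. These values are descriptions over libraries that share groups and tissue composition, and no test was made. Lyz1 was most like Cxcr5 (r = 0.988) and Fcer2a (r = 0.983), which are genes of B cells and their follicles. Reg4 was most like Ceacam18 (r = 0.995), and Reg3g was most like Scg3 (r = 0.996) and Cryab (r = 0.995). For Saa3 these genes were Grb10 (r = 0.964) and Apol6 (r = 0.959), for Dmbt1 Parg (r = 0.970) and Rev1 (r = 0.952), and for Lcn2 Wdr24 (r = 0.966) and Fbf1 (r = 0.956). Slpi was most like Aifm2 (r = 0.949) and C1qtnf12 (r = 0.942). Saa1 had the weakest best matches, Ephx2 (r = 0.900) and Slc46a3 (r = 0.897).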

How the data were processed

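The authors deposited 1 table of counts, whole numbers of reads per Ensembl gene for the 8 libraries, with no normalization. RNA was extracted from colon with a column kit and libraries were made with a NEBNext Ultra kit, per the labels' protocols, which does not mark the strand. TopHat2 2.0.12, HTSeq 6.1, DESeq 1.18.0 and the build mm10 are named per the submitters' processing notes; which annotation and strand setting were used, and how reads that fit several genes were treated, is not given in the sources used here. Whole-library totals ran from 16195376 to 19761098 per library.

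Of 52636 identifiers, 52489 had a symbol in GENCODE M21; the other 147 held 0.00317% of all counts. All 8 libraries were fitted together in edgeR 4.0.16 (R 4.3.3; TMM factors, filterByExpr on the 3 groups, quasi-likelihood F-test). The fit had 5 residual degrees of freedom and a prior of 4.05, and p-values were adjusted over the 16107 genes tested in each comparison. SE is the size of the log2 difference over the square root of F; CPM uses TMM library sizes. The fit was tested on simulated data. No pair of libraries within a group differed by as little as sampling noise. The alternatives were DESeq2 1.42.0 (test and size factors), upper-quartile factors, limma-voom (limma 3.58.1), other filters, only the 2 groups compared, a replicate block, smooth muscle or epithelium scores as covariates, each library left out, and a threshold of 0.1.

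The 10 genes and the lists were chosen with earlier results of these data known. Named beside the 10 genes are their 7 paralogs, for the effector and upstream lists every gene past the threshold or else the 2 with the smallest p in each comparison, and the 2 genes most alike to each tested gene; cytokines and markers at 0 or near it are named for their detection only. Some genes chosen by this rule are not reported here, though the fits and list counts include them. Promoter windows come from RefSeq on GRCm38.p6, matched by symbol for 9 of the 10 genes.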

Additional observations from a re-analysis of the deposited data

How the results depend on the processing

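Under the alternatives, 0 of the 8 genes tested passed the threshold in each comparison, except that leaving out single libraries gave 0 to 1 for C. tropicalis against C. albicans (Reg4, without C. albicans 1). Of 420 log2 differences recomputed, 399 kept their direction and side of the threshold, 20 reversed and 1 passed the threshold. None of the reversed values passed it. When a smooth muscle score entered the fit, the reversed values were -0.0189 for Reg3g with C. albicans against control. For C. tropicalis against control they were 0.31 for Reg3g, -1.17 for Reg4 and 1.44 for Saa3, and for C. tropicalis against C. albicans 0.32 for Reg3g, -0.95 for Reg4, -0.0859 for Lcn2, 1.37 for Saa3 and -1.54 for Lyz1. With the epithelium score, they were -0.10 for Saa1, -1.04 for Saa3 and -0.0385 for Dmbt1 with C. albicans against control, and 0.0520 for Lyz1 with C. tropicalis against control. The cause was not tested. Leaving out each library gave -0.0254 to 0.65 for Lcn2 and -0.0591 to 0.30 for Saa1 with C. albicans against control, -3.12 to 1.48 for Saa3 and -0.71 to 0.0831 for Lyz1 with C. tropicalis against control, and -0.15 to 0.0457 for Slpi with C. tropicalis against C. albicans. Where 1 C. tropicalis library was left, it was assumed to vary like the other groups.

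Over all genes, 7 were called for C. albicans against control, 5 for C. tropicalis against control and 0 between the yeasts; further counts follow in that order. DESeq2 called 461, 393 and 1737, no filter gave 119, 71 and 1127, a threshold of 0.1 gave 43, 10 and 1481, and the 2 groups alone gave 0 for C. tropicalis against control and 858 for C. tropicalis against C. albicans. Smooth muscle as a covariate gave 0 for C. tropicalis against control, and epithelium gave 1 and 2 against control with C. albicans and C. tropicalis. Leaving out a library gave 0 to 254, 0 to 192 and 0 to 1315: for C. albicans against control 254 without C. albicans 1, 0 without C. albicans 3, 1 without control 1 or control 2 and 2 without control 3; for C. tropicalis against control 192 without control 3, 0 without control 1, control 2 or C. tropicalis 1, and 1 without C. tropicalis 2, C. albicans 2 or C. albicans 3; between the yeasts 1315 without C. albicans 1, 925 without control 1 and 897 without control 3. Replicate numbers did not pair the libraries (correlation of same-numbered deviations -0.392 to 0.156); with the replicate block, 0 genes were called in each comparison and 0 of the 8.

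Depth kept Reg3a and Reg3b out of the test and limits Reg3g. Reg3g could not be fitted without C. albicans 2 or C. albicans 3, at a CPM of at least 1 in 3 libraries, or with only the 2 groups of either comparison with control, where Saa3 was also lost for C. tropicalis. DESeq2 gave Reg3g no adjusted p against control with either yeast, nor Saa3 with C. tropicalis.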
